A study of Mus musculus with 6 samples.

Results

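The genes described here are 9 genes that respond to glucocorticoids or control their action, read in the livers of Liver Insulin Receptor Knockout (LIRKO) mice and of their littermate Flox controls. They are *Zbtb16*, *Fkbp5*, *Tsc22d3*, *Sgk1*, *Mt1*, *Mt2*, *Nr3c1*, *Hsd11b1* and *Dusp1*. Every probe set that the platform annotation gives to 1 of these symbols alone was kept, which gave 10 of 12422 probe sets and all 9 of the genes, with *Zbtb16* read by 2 probe sets and each other gene by 1. *Zbtb16* was chosen by its difference between LIRKO and Flox livers on these arrays, and the other 8 genes were joined to it with results of these data known. All differences between LIRKO and Flox for the 10 probe sets are therefore a description, without a test.

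Glucocorticoids, such as corticosterone in the mouse, are adrenal steroid hormones that bind the glucocorticoid receptor, which then enters the nucleus and raises or lowers the transcription of its target genes. In liver they promote gluconeogenesis and amino acid breakdown and so act against insulin. How much hormone a cell receives depends on blood levels, on enzymes that activate or inactivate the steroid inside the cell, and on the chaperones that hold the receptor ready for it.

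LIRKO livers (IR flox/flox, albumin:CRE +) lack the insulin receptor in cells where Cre, driven by the albumin promoter, is made, which are mainly hepatocytes. Flox livers (IR flox/flox, albumin:CRE -) carry the same floxed alleles without Cre. Both groups were male mice of 2 to 3 months on a mixed genetic background and ate normal chow freely until livers were taken without fasting. RNA of 2 to 3 mice was pooled on each Affymetrix MG-U74A-v2 array, with 3 LIRKO and 3 Flox arrays, and the arrays therefore vary as pools, not as single mice. No value of the hormone itself was analysed here.

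The values are RMA (robust multichip averaging) signals on the log2 scale, where a difference of 1 is a doubling, and the number of arrays limits their precision. The *Insr* probe set 102146_at read 5.37, 5.99 and 6.06 on the LIRKO arrays and 5.45, 5.22 and 5.38 on the Flox arrays, and since it is not known here to lie in the deleted part of the gene, it does not check the labels. All 9 measured hepatocyte markers lay at or above percentile 93.3 of Flox signal, with *Alb* at 99.98. Their summed linear signal was 82070, 54390 and 59050 on LIRKO 1, LIRKO 2 and LIRKO 3, against 77560 to 81240 on the Flox arrays, with a median difference of -0.54 (0.03 on LIRKO 1) and 1 of 9 above the Flox mean. LIRKO 2 and LIRKO 3 stood apart from the other arrays by signal level. In the brightest of 10 equal groups of probe sets ordered by Flox mean, the median difference from Flox was -1.09 on LIRKO 2 and -0.89 on LIRKO 3, against -0.01 on LIRKO 1, and in the dimmest group it was 0.23, 0.15 and -0.03. The differences of LIRKO 1 are therefore given beside those of all 3 arrays, and each member is set against the median of its own level group. The brightest group spans Flox means from 9.16 to 14.32, so its median stands for a wide range of levels. In whole liver, fewer cells of a type and less RNA per cell cannot be told apart.

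In LIRKO livers the *Zbtb16* probe set 92202_g_at was 6.82-fold higher than in Flox livers. The other *Zbtb16* probe set, 92201_at, was 1.53-fold higher with overlapping arrays, and at 0.952 of its Flox level on LIRKO 1. *Sgk1* was 1.64-fold and *Fkbp5* 1.36-fold higher. *Hsd11b1*, in the brightest level group, was at 0.361 of its Flox level (0.573 after cyclic loess normalization and 0.777 on LIRKO 1). *Tsc22d3* and *Nr3c1* differed by 0.07 and -0.34 on the log2 scale. *Mt1*, *Mt2* and *Dusp1*, in the same level group, were below the Flox mean on LIRKO 2 and LIRKO 3 and lay within 0.38 of it on LIRKO 1. Of the 10 probe sets, 2 had all LIRKO arrays above all Flox arrays, as did 9.84% of all probe sets, and 1 had all of them below, as did 14.9%. At an adjusted p under 0.05 in limma, 1 member probe set stood out, 92202_g_at, against 0.129% of all probe sets. This count was 0 without LIRKO 2 or any 1 Flox array and 5 without LIRKO 1, where 49.1% of all probe sets passed. Since this contrast helped to choose the members, nothing is read from these shares.

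**Figure D1:**
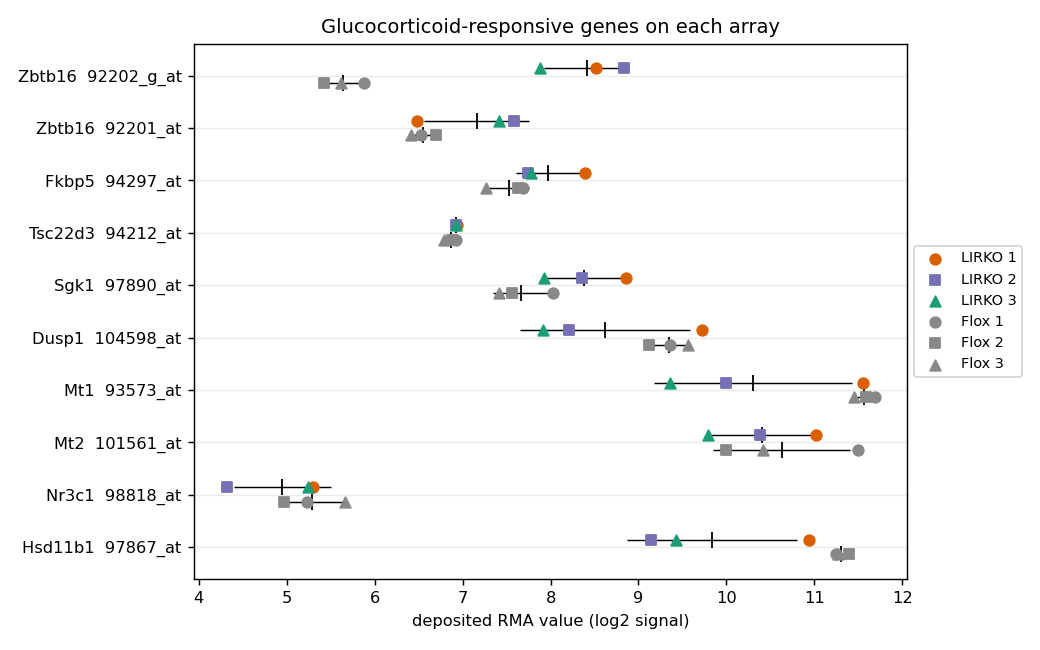
Deposited RMA value (log2 signal, horizontal axis) of the 10 member probe sets on each array; coloured symbols are LIRKO arrays (upper line of each pair) and grey symbols Flox arrays, and black bars give the mean ± SD of 3 arrays. The groups stand apart for *Zbtb16* 92202_g_at (8.41 against 5.64 on average), for *Fkbp5* and, on the low side, for *Hsd11b1*.

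The first step of glucocorticoid action inside the hepatocyte was read by *Hsd11b1*, which encodes the 11-beta-hydroxysteroid dehydrogenase that turns inactive 11-dehydrocorticosterone into corticosterone. *Hsd11b1* (97867_at) read 10.94, 9.14 and 9.42 on LIRKO 1, LIRKO 2 and LIRKO 3, against 11.25, 11.39 and 11.27 on the Flox arrays. All 3 LIRKO arrays lay below all Flox arrays, LIRKO 1 the least so. The means were 9.83 ± 0.97 in LIRKO and 11.30 ± 0.08 in Flox (SD, n = 3 each), a difference of -1.47 (standard error 0.44). It was -0.99 after quantile normalization, -0.80 after cyclic loess and -0.36 on LIRKO 1. Relative to the brightest level group, to which it belongs, *Hsd11b1* stood at -0.35, -1.08 and -0.99 on LIRKO 1, LIRKO 2 and LIRKO 3. The summed signal of the hepatocyte markers was likewise lower on LIRKO 2 and LIRKO 3, as given above, and their part in this difference was not tested.

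*H6pd* encodes hexose-6-phosphate dehydrogenase, which supplies the enzyme with NADPH in the endoplasmic reticulum. It read 11.29, 9.51 and 9.71 on the LIRKO arrays, against 11.60, 11.54 and 11.42 on the Flox arrays, and thus lay below all Flox arrays on each LIRKO array, with a difference of -1.35 that did not pass (adjusted p = 0.237 from limma). On LIRKO 1 this was -0.23 and after cyclic loess -0.64. Of 8 measured genes of corticosteroid transport and metabolism, neither *H6pd* nor any other passed in either direction, and their median difference was 0.05 (0.06 on LIRKO 1), against -0.01 over all 8251 genes. *Akr1c6*, a hydroxysteroid dehydrogenase gene, had a difference of -0.76 (adjusted p = 0.237), which was 0.21 after cyclic loess. *Cyp3a11*, a cytochrome P450 that hydroxylates steroids, had one of 0.20 (adjusted p = 0.386), and 1.17 after cyclic loess. *Serpina6*, which encodes the corticosteroid-binding globulin that liver secretes, was chosen for mention after its values were seen. It read 12.47, 10.93 and 11.31 on LIRKO 1, LIRKO 2 and LIRKO 3, against 11.50, 11.61 and 11.52 on Flox. Only on LIRKO 1 was it above all Flox arrays, and its difference of 0.02 became 0.85 after cyclic loess, where it passed.

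*Nr3c1*, the glucocorticoid receptor gene, was read by a dim probe set (98818_at, percentile 25.8 of Flox signal). It had 5.29, 4.32 and 5.24 in LIRKO livers, against 5.23, 4.97 and 5.66 in Flox livers. LIRKO 1 and LIRKO 3 lay within the Flox range and LIRKO 2 below it. The difference of -0.34 (standard error 0.30) was 0.01 on LIRKO 1. Chaperones hold the unbound receptor in a form that binds hormone, and coregulators carry its effect to chromatin. None of 14 measured genes of these kinds passed, with a median difference of -0.12 that was 0.17 on LIRKO 1 and 0.01 after cyclic loess. The 3 with the smallest p were *Stub1*, a ubiquitin ligase that works with chaperones, at -0.79 (adjusted p = 0.237), *Ncoa3*, a nuclear receptor coactivator, at 0.58 (adjusted p = 0.238), and *St13*, a cochaperone, at -0.38 (adjusted p = 0.286).

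*Fkbp5* encodes FKBP51, a cochaperone that lowers the receptor's affinity for hormone and is itself induced by the receptor, which closes a feedback loop. *Fkbp5* (94297_at) read 8.39, 7.75 and 7.78 in LIRKO livers and 7.69, 7.63 and 7.27 in Flox livers. All LIRKO arrays were above all Flox arrays, but LIRKO 2 exceeded Flox 1 by little, and LIRKO 1 was the highest. The means were 7.97 ± 0.36 in LIRKO and 7.53 ± 0.23 in Flox (SD, n = 3 each), a difference of 0.44 (standard error 0.21). Per array the difference came to 0.86, 0.22 and 0.25 for LIRKO 1, LIRKO 2 and LIRKO 3, and it stayed positive after quantile normalization (0.54) and cyclic loess (0.55). The median of its level group differed most on LIRKO 2, by -0.07.

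*Zbtb16* encodes PLZF, a zinc finger transcription factor with a BTB domain that mostly represses its targets. It is induced by glucocorticoids in several cell types and is also a hallmark of natural killer T cells, which are common in mouse liver. On probe set 92202_g_at it read 8.51, 8.84 and 7.88 in LIRKO livers, against 5.88, 5.42 and 5.61 in Flox livers. The groups were far apart, with LIRKO 3 the lowest of the LIRKO arrays and still well above Flox 1. The means were 8.41 ± 0.49 in LIRKO and 5.64 ± 0.23 in Flox (SD, n = 3 each), and the difference was 2.77 (standard error 0.26). Array by array it came to 2.87, 3.20 and 2.24 for LIRKO 1, LIRKO 2 and LIRKO 3, and it was 2.86 after quantile normalization and 2.79 after cyclic loess. This probe set lay at percentile 31.4 of Flox signal, where the level group differed by 0.16 on LIRKO 2 and by less on the other two.

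The other *Zbtb16* probe set, 92201_at, gave a different picture on LIRKO 1. It read 6.47, 7.59 and 7.41 in LIRKO livers and 6.53, 6.69 and 6.42 in Flox livers, so that LIRKO 2 and LIRKO 3 were above all Flox arrays and LIRKO 1 lay among them. The difference of 0.61 (standard error 0.29) came from LIRKO 2 and LIRKO 3, at 1.04 and 0.87, with LIRKO 1 at -0.07. On LIRKO 1 the *Zbtb16* probe sets thus differed from Flox by 2.87 and -0.07. Which stretch of the transcript each reads is not known here.

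Natural killer, natural killer T and T cell markers were read beside *Zbtb16*. None of 16 measured genes passed in either direction, and their median difference was 0.21 over all LIRKO arrays and -0.07 on LIRKO 1. Of the 16, 14 were above the Flox mean over all LIRKO arrays, and 11 were below it on LIRKO 1. On that array *Zbtb16* 92202_g_at differed from Flox by 2.87 and *Zbtb16* 92201_at by -0.07. The summed linear signal of the list was 1413 to 1483 on the LIRKO arrays, against 1562 to 1735 on the Flox arrays. *Cd1d1*, which hepatocytes also express, was its brightest gene, and without it the sum was 719.5 to 1125 on the LIRKO arrays, against 692.4 to 786.3 on the Flox arrays. No marker passed among 5 measured B cell genes, 11 of Kupffer cells and macrophages, 9 of endothelial and stellate cells, 3 of bile duct and 3 of fat. Summed B cell signal was 627 to 769 on LIRKO and 577 to 589 on Flox arrays. On LIRKO 1 all 11 Kupffer cell and macrophage markers were above the Flox mean, with a median of 0.41. Over all LIRKO arrays 4 were above it, with a median of -0.12. Their summed signal was 4811, 2440 and 3485 on LIRKO 1, LIRKO 2 and LIRKO 3, against 2601 to 4565 on the Flox arrays. The part of these cells in the members' differences was not tested.

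*Tsc22d3* and *Sgk1* are textbook targets of the receptor. *Tsc22d3* encodes GILZ, a leucine zipper protein that carries part of the anti-inflammatory effect. Its probe set (94212_at) read 6.93, 6.92 and 6.93 on the LIRKO arrays, against 6.93, 6.88 and 6.78 on the Flox arrays. The 6 values thus lay within 0.15 of each other and the groups overlapped. The difference was 0.07 (standard error 0.11), and 0.07 on LIRKO 1.

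*Sgk1*, serum and glucocorticoid regulated kinase, acts on ion transport and phosphorylates FoxO factors. Its probe set (97890_at) read 8.86, 8.36 and 7.92 in LIRKO livers and 8.02, 7.56 and 7.42 in Flox livers. LIRKO 1 and LIRKO 2 were above all Flox arrays, while LIRKO 3 lay just under Flox 1. The means were 8.38 ± 0.47 in LIRKO and 7.67 ± 0.32 in Flox (SD, n = 3 each), a difference of 0.71 (standard error 0.27). Like *Fkbp5*, *Sgk1* was highest on LIRKO 1, at 1.19 above Flox. Its level group was shifted by -0.25 and -0.16 on LIRKO 2 and LIRKO 3, and relative to that group it stood 1.20, 0.94 and 0.41 higher on LIRKO 1, LIRKO 2 and LIRKO 3.

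The receptor binds DNA as a dimer at the glucocorticoid response element, whose palindromic form, AGAACA followed by any 3 bases and TGTTCT, was searched in RefSeq promoters (GRCm38.p6), each of 250 bases before and 50 bases after a transcript start. Of the table's entries, 14 were read for 7 of the members, *Fkbp5*, *Tsc22d3*, *Sgk1*, *Mt1*, *Mt2*, *Hsd11b1* and *Dusp1*. *Nr3c1* was left out of the member search, and *Zbtb16* had no entry. The full palindrome occurred in 1 of the 14, at the fifth of 6 *Sgk1* starts, and in 3 of 32851 entries of the table, 0.00913%. The sequence below is shown because it holds this match, in capitals, and lies on the plus strand at chr10:21993694-21993723, at positions -196 to -167 from that start.
*Sgk1*: tgcggaaAGAACAGAATGTTCTcggagatt
Either arm alone (AGAACA or TGTTCT, each the other's reverse complement and both contained in the full element) occurred in 4 of the 14 entries, all of *Sgk1* or *Tsc22d3*, and in 19.0% of all entries. The windows of the other members searched held none of these letters, which says nothing of more distant sites. A match is a description of letters and not a binding site.

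*Dusp1* encodes a phosphatase that switches off MAP kinases and is induced by glucocorticoids as well as by growth and stress signals. Its probe set (104598_at) read 9.72, 8.21 and 7.91 on LIRKO 1, LIRKO 2 and LIRKO 3, against 9.36, 9.12 and 9.56 on the Flox arrays. LIRKO 1 was above all Flox arrays and the other two below. The difference of -0.73 (standard error 0.45) was 0.37 on LIRKO 1 and -0.36 after cyclic loess. Relative to the median of its level group it stood at 0.39, -0.05 and -0.54 on LIRKO 1, LIRKO 2 and LIRKO 3. These distances depend on where the groups are cut. The Flox mean of *Dusp1*, 9.345, lay near the lower edge of the brightest group, which starts at 9.158. The next group down was shifted by -0.47 and -0.38 on LIRKO 2 and LIRKO 3, against -1.09 and -0.89 in the brightest.

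Immediate early genes, which respond within minutes to growth and stress signals, gave no call among 15 measured, with a median difference of 0.11 and of 0.16 on LIRKO 1. On LIRKO 1, 13 of the 15 were above the Flox mean. All LIRKO arrays were above all Flox arrays for 5 of the 15, *Ier3*, *Atf3*, *Btg2*, *Klf4* and *Klf6* (*Atf3* and *Klf6* being named after their values were seen), and below for none, beside the 9.84% and 14.9% of all probe sets given above. The 3 with the smallest p were *Ier3* at 0.84, *Btg2*, an antiproliferative gene, at 0.46 and *Klf4*, a zinc finger factor, at 0.38, each at an adjusted p of 0.237 from limma.

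*Mt1* and *Mt2* encode metallothioneins, small cysteine-rich proteins that bind zinc and are induced by zinc and by glucocorticoids. They are close paralogs that lie side by side on chromosome 8, and signal shared between their probe sets was not tested. *Mt1* (93573_at) read 11.55, 10.001 and 9.36 in LIRKO livers, against 11.69, 11.58 and 11.45 in Flox livers. LIRKO 1 lay within the Flox range and the other 2 LIRKO arrays far below it. The difference of -1.27 (standard error 0.51) was -0.03 on LIRKO 1 and -0.55 after cyclic loess. *Mt2* (101561_at) read 11.01, 10.38 and 9.79 in LIRKO livers, against 11.50, 9.99 and 10.41 in Flox livers. Here the Flox arrays spread over 1.51, with Flox 1 highest, and the groups overlapped. The difference of -0.24 (standard error 0.45) turned to 0.30 after quantile normalization, 0.42 after cyclic loess and 0.38 on LIRKO 1. Relative to their level group, *Mt1* stood at -0.01, -0.49 and -1.32 on LIRKO 1, LIRKO 2 and LIRKO 3, and *Mt2* at 0.39, 0.83 and 0.05.

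The factor MTF1 induces metallothionein genes through metal response elements with the core TGCNCNC. This core was searched on both strands of the same promoters. It matched 3 times near the *Mt1* start and 6 times near the *Mt2* start, and 51.0% of all entries held at least 1 match, 7.10% at least 3 and 0.225% at least 6. All 7 members searched held a match, in 8 of their 14 entries, and 1 of the *Sgk1* starts also held 3. The windows below hold pairs of matches, in capitals, and are shown because the response of these genes to metal runs through such elements. They lie on the plus strand at chr8:94179089-94179118, the first 30 bases from the *Mt1* start, and chr8:94172486-94172515, positions -132 to -103 from the *Mt2* start.
*Mt1*: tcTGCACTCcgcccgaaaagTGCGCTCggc
*Mt2*: ccttTGCGCTCagctccttTGCTCTCagtc
None of 11 measured genes of zinc and metal handling passed, with a median difference of 0.23 and of 0.06 on LIRKO 1. *Mtf1* itself differed by 0.26 (adjusted p = 0.410) and *Slc30a1*, a zinc exporter and MTF1 target, by 0.14 (adjusted p = 0.497). These were named after their values were seen. By the smallest p, *Cp*, ceruloplasmin, a secreted ferroxidase, had -1.44 (adjusted p = 0.237, -0.33 on LIRKO 1), *Tfrc*, the transferrin receptor, 0.39 (adjusted p = 0.237) and *Mt4*, a metallothionein gene of squamous epithelia, -0.38 (adjusted p = 0.248).

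**Figure D2:**
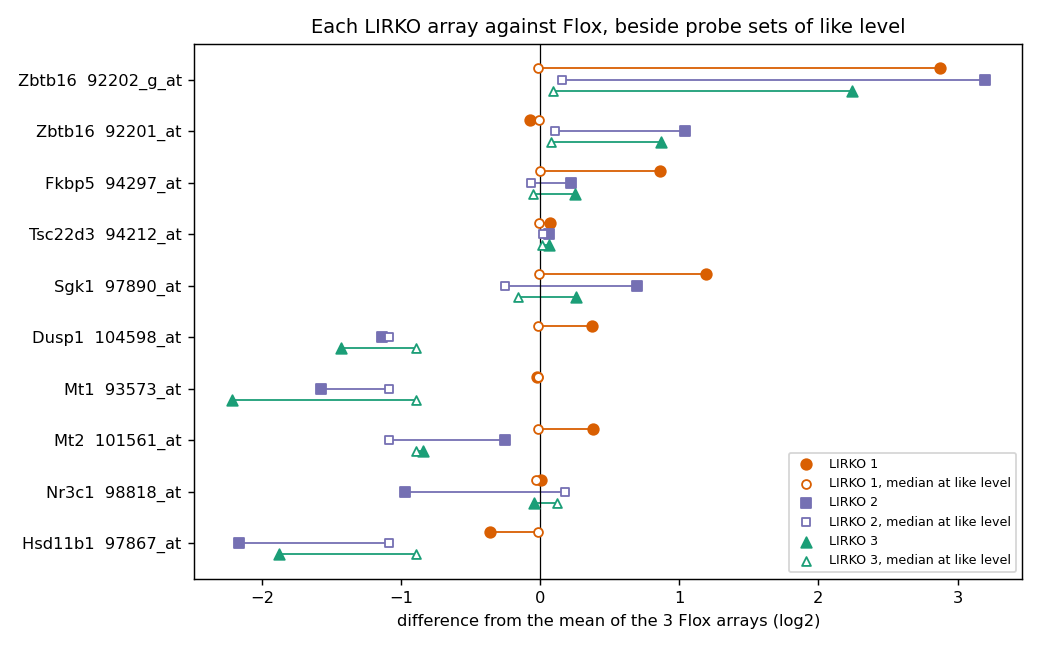
Distance of each LIRKO array from the Flox mean (log2, horizontal axis) for the 10 member probe sets; filled symbols are the probe set and open symbols the median of its level group on that array. *Zbtb16* 92202_g_at stood 2.89, 3.04 and 2.15 above the open symbols on LIRKO 1, LIRKO 2 and LIRKO 3, while *Hsd11b1* stood at -0.35, -1.08 and -0.99 from them.

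Set against probe sets of like level, 5 of the 10 were higher on all 3 LIRKO arrays, namely *Zbtb16* 92202_g_at, *Fkbp5*, *Tsc22d3*, *Sgk1* and *Mt2*. The margin was 0.04 to 0.08 for *Tsc22d3*, and 0.05 on LIRKO 3 for *Mt2*. *Mt1* and *Hsd11b1* were lower on all 3, *Mt1* by only 0.01 on LIRKO 1. *Zbtb16* 92201_at, *Nr3c1* and *Dusp1* were on different sides on different arrays. The share of all probe sets on 1 side of their level group on all 3 arrays was not computed, so nothing is read from these counts. The median difference over the 10 probe sets was -0.09, against 0.01 over all probe sets. On LIRKO 1 it was 0.22, against -0.02, and after cyclic loess 0.25, against 0.01. On LIRKO 1, 5 of the 10 were above all Flox arrays, as were 24.7% of all probe sets, and 1, *Hsd11b1*, was below, as were 30.9%. The 5 were *Zbtb16* 92202_g_at, *Fkbp5*, *Tsc22d3*, *Sgk1* and *Dusp1*. Of these, *Tsc22d3* read 6.933 on LIRKO 1, against 6.926 on Flox 1.

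**Figure D3:**
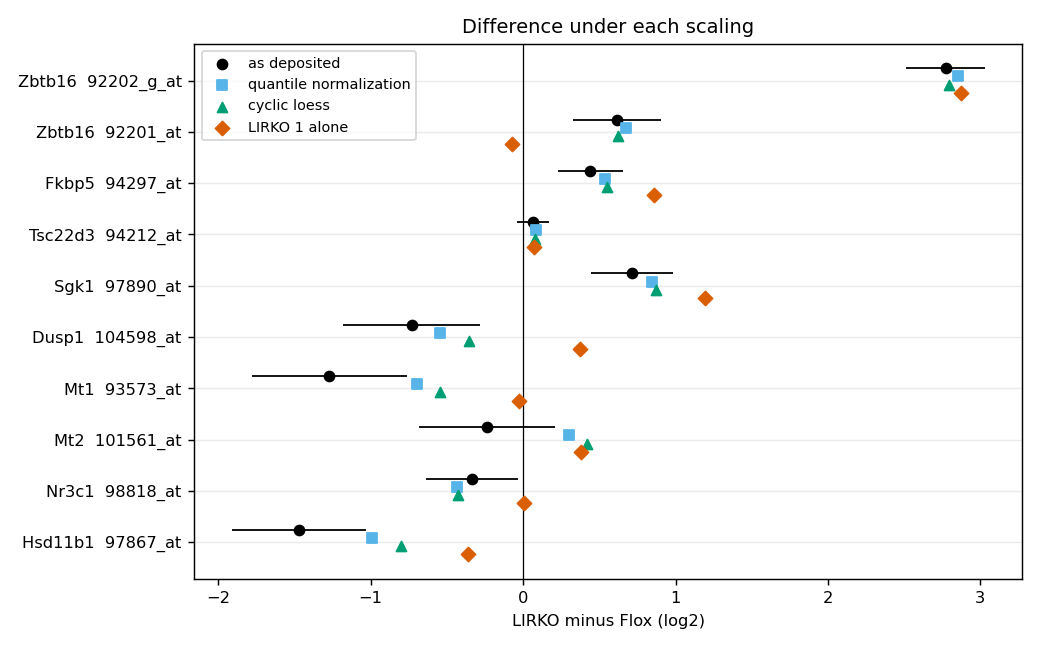
LIRKO minus Flox (log2, horizontal axis) for the 10 member probe sets as deposited (circles, with the standard error from limma), after quantile normalization, after cyclic loess, and on LIRKO 1 alone. *Zbtb16* 92202_g_at stayed between 2.77 and 2.87, while *Mt2* ranged from -0.24 to 0.42 and *Dusp1* from -0.73 to 0.37.

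Other genes that glucocorticoids induce in liver were read from a list of 27, of which 25 were measured. *Igfbp1*, a binding protein gene for insulin-like growth factors that FoxO1 also drives, rose (11.94, 11.63 and 11.43 in LIRKO livers, against 9.35, 8.56 and 8.89 in Flox livers). Its difference was 2.74 (adjusted p = 0.0257 from limma) and 3.01 on LIRKO 1. *Lcn2*, lipocalin 2, a secreted protein of the acute phase, fell (5.94, 5.93 and 5.87 in LIRKO livers, against 11.36, 9.93 and 9.85 in Flox livers), with a difference of -4.46 (adjusted p = 0.0257) and of -4.44 on LIRKO 1. Neither passed without Flox 2, Flox 3, LIRKO 2 or LIRKO 3, where adjusted p ran up to 0.196 for *Igfbp1* and 0.263 for *Lcn2*. The other 23 did not pass. *Orm1*, orosomucoid, another acute phase gene, had the next smallest p, at -2.16 (adjusted p = 0.237) and -0.97 on LIRKO 1. The classical enzymes were named after their values were seen. *Tat*, tyrosine aminotransferase, read 13.46, 12.33 and 11.69 in LIRKO livers, against 13.13, 12.99 and 12.76 in Flox livers. *Tdo2*, tryptophan dioxygenase, read 13.10, 10.54 and 11.36, against 13.29, 13.10 and 13.17. Both were highest on LIRKO 1 among the LIRKO arrays, at 0.50 and -0.08 from Flox. *Pck1* and *G6pc*, of gluconeogenesis, were also named after their values were seen. They had differences of -0.09 and -0.68, which were 0.60 and 0.36 on LIRKO 1 and 0.58 and 0.11 after cyclic loess. All LIRKO arrays were above all Flox arrays for 6 of the 25 and below for 5, beside 9.84% and 14.9% of all probe sets. The list had a median difference of -0.18, against -0.01 over all genes. This median was 0.30 on LIRKO 1, with 18 of 25 above the Flox mean, and 0.18 after cyclic loess.

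**Figure D4:**
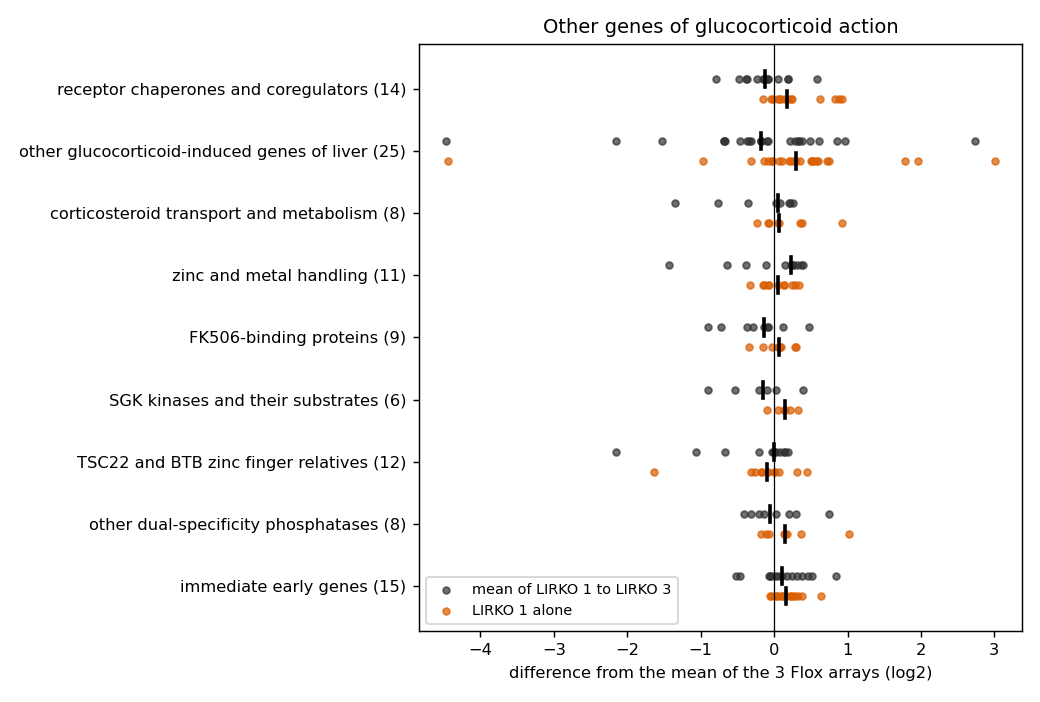
Distance from the Flox mean (log2, horizontal axis) for each measured gene of 9 lists around the members, with the number measured in brackets; dark points average the LIRKO arrays, orange points show LIRKO 1 alone, and black bars medians. The farthest dark points are *Lcn2* at -4.46 and *Igfbp1* at 2.74, both past the threshold; no other gene of the lists passed in the comparison of all arrays.

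The probe sets with 1 gene symbol whose signal followed *Zbtb16* 92202_g_at most closely over the 6 arrays were those of *Igfbp1* (Pearson r = 0.984), *Lepr* (0.967), *Usp18* (0.960), *Rgs16* (0.950) and *Igfbp2* (0.949), out of 2517 with a range of at least 1. *Lepr* encodes the leptin receptor, *Usp18* an interferon-induced protease, *Rgs16* a regulator of G-protein signalling, and *Igfbp2* another binding protein. All share the same LIRKO and Flox pools, so that any probe set with a clear gap between the groups scores high. Among the other member probe sets, *Sgk1* was closest to *Zbtb16* 92202_g_at (r = 0.817), followed by *Fkbp5* (0.676). The other probe set of *Zbtb16* itself, 92201_at, came after these (0.625), beside *Tsc22d3* (0.624). *Hsd11b1* ran most opposite to 92202_g_at (-0.776).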

How the data were processed

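Per the labels and methods, the authors processed the arrays in R with affy and limma and deposited RMA values (background corrected, normalized and summarized per probe set) as log2 signals. The sources do not say if RMA ran on the 6 arrays jointly. The values were taken as deposited, 66 array controls of 12488 probe sets were left out, and 12422 were tested without a filter. The LIRKO and Flox groups were tested against each other by limma 3.58.1 in R 4.3.3 (lmFit, eBayes, Benjamini-Hochberg over all probe sets, threshold 0.05). The test was tried on simulated data. Symbols came from the platform annotation (10833 probe sets with 1 symbol, 396 with several, 1193 with none), and all 10 member probe sets were found by Entrez ID in RefSeq. Genes of the lists were read by their brightest probe set. Probe sets were divided into 10 groups by Flox mean, and the median difference of a group was set beside its members. Named were all member probe sets, list genes past the threshold, the 3 of each list with the smallest p, and the 5 probe sets closest to *Zbtb16*. *Alb* and *Cd1d1* are named as the brightest of their marker lists, and the other exceptions are marked in the text as named after their values were seen. Members and lists were chosen with earlier results of these data known. Whether the pools of one number came from the same cages or days is not stated, and p-values measure the spread between pools. Alternatives were 2 normalizations, a filter on dim probe sets, a trended variance, an unequal variance t-test, a replicate block, leaving out each array, and LIRKO 1 alone. Since LIRKO 1 alone is 1 array and holds no spread between LIRKO pools, only its differences and its position against the Flox arrays are given. The methods name that t-test for the mouse studies in general and limma for the arrays. Python 3.11.15 with pandas 2.3.3 and matplotlib 3.10.9 was used for tables and figures.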

Additional observations from a re-analysis of the deposited data

How the results depend on the processing

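The count of 16 probe sets past the threshold became 40 after cyclic loess, 90 with LIRKO 1 alone, and 0 when the methods' t-test was adjusted by Benjamini-Hochberg, where 728 had an unadjusted p under 0.05 (2602 in limma). The single member call, *Zbtb16* 92202_g_at, was lost with the unequal variance t-test (0 of 10, with 1 at an unadjusted p under 0.05). It was also lost with the replicate block (0, with 6 at an unadjusted p under 0.05, and 11 over all probe sets). Leaving out 1 array gave 2 (without LIRKO 2) to 6095 (without LIRKO 1) probe sets and 0 to 5 member probe sets. The member count was 0 without Flox 1, Flox 2, Flox 3 or LIRKO 2, and 5 without LIRKO 1, where 49.1% of all probe sets passed, namely both of *Zbtb16* as higher and *Mt1*, *Hsd11b1* and *Dusp1* as lower. Member probe sets without overlap, 3 of 10, numbered 3 to 6 with 1 array left out, where the share over all probe sets was not computed. With LIRKO 1 alone they numbered 6, where 24.7% of all probe sets lay above all Flox arrays and 30.9% below. Nothing is read from these counts. The 2 list genes that passed became 4 after cyclic loess, adding *Serpina6* and *Tsc22d1*, and 1 when probe sets were averaged by gene. With 1 array left out, 0 to 53 list genes passed (0 without Flox 2, Flox 3, LIRKO 2 or LIRKO 3, and 53 without LIRKO 1). On LIRKO 1 alone the differences of *Zbtb16* 92201_at and *Dusp1* turned to -0.071 and 0.37, and those of *Mt2* and *Nr3c1* to 0.38 and 0.01. *Mt2* also turned after quantile normalization (0.30), after cyclic loess (0.42), without Flox 1 (0.19) and without LIRKO 3 (0.06). The cause of these changes was not tested. Same-numbered arrays had deviations that correlated at 0.32, 0.40 and 0.09, and LIRKO 3 correlated better with Flox 2 (0.17), so that the numbers were not taken to pair the arrays.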

Other observations

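Relatives of the members gave few large differences, and none passed. *Tsc22d1*, which like *Tsc22d3* encodes a TSC22 domain protein, read 6.71, 6.17 and 5.73 in LIRKO livers, against 8.68, 7.94 and 8.44 in Flox livers. All LIRKO arrays lay below all Flox arrays, with a difference of -2.15 (adjusted p = 0.102 from limma) that was -1.64 on LIRKO 1. After cyclic loess it was -2.10 and passed (adjusted p = 0.0444). *Tsc22d3* differed by 0.07 on the same arrays. Among BTB zinc finger genes, *Bcl6*, a repressor, had -0.66 and *Zbtb20*, a factor of hepatocytes, -1.06 (both adjusted p = 0.237), and the list of 12 TSC22 and BTB relatives, *Tsc22d1* included, had a median of -0.003.

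Of 8 measured dual-specificity phosphatases other than *Dusp1*, *Dusp6*, which acts on ERK, was the largest at 0.74 (adjusted p = 0.237, 1.03 on LIRKO 1), followed by p value by *Dusp12* at -0.41 (adjusted p = 0.237) and *Dusp8* at 0.30 (adjusted p = 0.293). The *Dusp6* values of 8.73, 7.96 and 8.64 in LIRKO livers lay above those of 7.39, 7.79 and 7.92 in Flox livers. Of 9 FK506-binding protein genes beside *Fkbp5*, *Fkbp11*, *Fkbp1b* and *Fkbp2* had -0.72, 0.48 and -0.90 (adjusted p = 0.237, 0.237 and 0.240), with a list median of -0.14 and of 0.07 on LIRKO 1. Of 6 measured SGK kinases and substrates, *Nedd4l*, a ubiquitin ligase that SGK1 inhibits, had 0.40, *Ndrg2* -0.90 (0.13 on LIRKO 1) and *Pdpk1*, which activates SGK1, -0.20 (adjusted p = 0.237, 0.251 and 0.301), with a list median of -0.15 and of 0.14 on LIRKO 1.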
